A study of Mus musculus with 11 samples.

Results

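Extracellular matrix and integrin genes were followed in the hypothalamus of male CO and HFD offspring at P21. The members were chosen by gene symbol, as collagens, laminins, perlecan, fibronectin, tenascins, lecticans with their link proteins, integrins except Itgam, the Adamts and matrix metalloproteinases (Mmp) and the Timp inhibitors. Of 143 such genes, 138 had a probe matched by accession, and 126 of these passed a filter on dim probes, which asked for a signal well above background on 5 or more of the 11 arrays. In all, 17189 genes passed. No matched probe was found for Col12a1, Col6a3, Itga10, Itgae and Mmp27. The other 12, of which 8 are metalloproteinases, did not pass this filter.

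CO offspring (n = 5, labelled SD) were C57BL/6N mice of dams on standard chow, and HFD offspring (n = 6) were of dams on a high-fat diet before conception and during gestation and lactation. All offspring were males sampled at weaning age, their sires were kept on standard chow outside mating, and the labels do not tie a sample to a dam or litter. The titles of CO samples share a leading number in 3 samples and another in 2, and what these numbers stand for is not given. Single-color Agilent arrays gave 1 intensity per probe. Levels are given as log2 of this signal relative to the 75th percentile of the array, so that 0 is the 75th percentile, and differences as HFD minus CO on the log2 scale with their standard error (SE).

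The matrix of the brain differs from that of other organs. Collagens, laminins and perlecan are largely kept to the basement membranes of vessels and to the meninges, whereas the space between neurons and glia holds hyaluronan, the chondroitin sulfate proteoglycans called lecticans, link proteins that hold them on hyaluronan, and tenascin-R, which cross-links them. Around some neurons this mesh condenses into perineuronal nets, which in the hypothalamus enclose neurons of the arcuate nucleus and form while the circuits mature after birth. Integrins are receptors of an alpha and a beta subunit through which cells bind matrix, and the Mmp and Adamts enzymes cut it, under control of the Timp proteins.

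CO and HFD arrays lay on different slides, were scanned in different sessions and were read with different versions of the extraction protocol, so that maternal diet and these steps cannot be told apart in any difference given here. Between 82.5% and 85.7% of spots were well above background on CO arrays, and between 71.8% and 77.4% on HFD arrays. Correlations between arrays were 0.986 to 0.994 within CO, 0.992 to 0.995 within HFD and 0.962 to 0.976 between the groups. Relative to the 75th percentile, 8 spike-in control probes were higher in HFD by 0.68 (p = 0.00216 in a two-sided exact permutation test, the lowest p this design allows). Scaling to these probes therefore lowers every difference by 0.68, and the median of all genes from -0.17 to -0.85. All 16 hypothalamic marker genes looked at, among them Pomc, Agrp, Hcrt and Oxt, passed the filter. Sim1 did so through HFD arrays only, with 0 CO arrays well above background. By the threshold given below, 4 of the 16 were higher and 3 lower in HFD offspring (22.2% and 44.1% of all genes).

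Of the 126 members, 22 were higher and 52 lower in HFD offspring, and 52 did not pass an adjusted p of 0.05 (limma with Benjamini-Hochberg adjustment over all genes tested). This is 58.7% of the members, against 66.4% of all genes tested. Higher members were 17.5%, against 22.2% of all genes, and lower members 41.3%, against 44.1%. The median member difference was -0.19, beside -0.17 over all genes, and the range was -2.09 to 1.57. In 13 members every HFD array was above every CO array (16.1% of all genes) and in 33 every HFD array was below (30.5% of all genes, and 46.6% of all genes in either direction). A difference of at least 2-fold was found in 4 members upward (5.61% of all genes) and 10 downward (10% of all genes). In either direction, 11.1% of members were called at 2-fold or more, against 15.6% of all genes. Each of these shares of members was below that of all genes, and the gap was not tested. Of the 126 members 109 were well above background on all 11 arrays. A separate fit limited to the 15406 genes of this kind gave 22 higher and 42 lower members and gained 1 call. Mmp16, among the higher members of the main fit, was well above background on 10 arrays. In 6 members no HFD array was well above background, so that these could only be lower. Scaling to spike-in probes gave 4 higher and 109 lower members, so that higher members fell from 29.7% to 3.54% of the members called. Over all genes this share fell likewise, from 33.5% to 6.15%. A different background correction (normexp), chosen after the files were seen, gave 14 higher and 23 lower members. It called 29.4% of the members, against 38.1% of all genes. In bulk tissue, fewer cells of a type and less RNA per cell cannot be told apart.

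**Figure D1:**
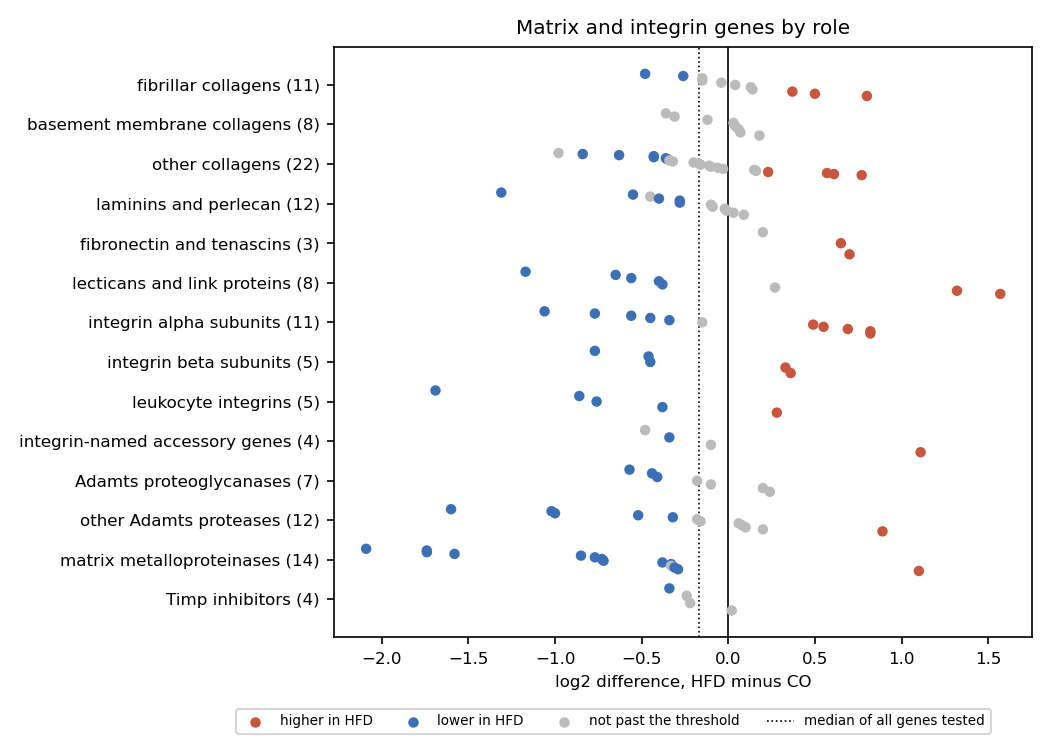
Each point is 1 of the 126 member genes, placed by its log2 difference (HFD minus CO, horizontal axis) within its role (vertical axis, with the number of genes). Colors give the call of the limma fit, the solid line is 0 and the dotted line the median of all genes tested (-0.17). The 8 basement membrane collagens lie near 0 without a call, whereas 12 of 14 metalloproteinases are lower (4 of these not well above background in HFD) and the lecticans and link proteins reach from -1.17 to 1.57. Among all genes tested 66.4% were called, and 44.1% were lower. Scaling to spike-in probes would move every point to the left by 0.68.

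Among the lecticans and link proteins, Vcan and Hapln1 were higher in HFD offspring, Bcan, Ncan, Hapln2, Hapln3 and Hapln4 were lower, and Acan did not pass the threshold. All of the 7 called genes were without overlap between the groups, and each kept its direction and its call under the 5 scalings and background corrections tried, spike-in scaling included. This was a share of 87.5% called, against 66.4% of all genes. Each lectican gene has a link protein gene as its neighbor with no protein-coding gene between them in the RefSeq gene table, and the 2 genes of a pair moved alike in 3 of the 4 pairs: Hapln1 and Vcan on chromosome 13 were higher, and Hapln2 and Bcan on chromosome 3, and Hapln4 and Ncan on chromosome 8, were lower. In the pair on chromosome 7, Hapln3 was lower (-1.17) and Acan was not called (0.27). How often neighboring genes move alike among all genes was not tested.

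For these pairs, the 250 bases before the start that the RefSeq promoter table (GRCm38.p6) uses are shown for the 4 genes it holds. In the RefSeq gene table Bcan, Ncan and Hapln1 reach beyond that start, so that the Bcan window lies within the gene, those of Ncan and Hapln1 do so in part, and that of Hapln2 lies before the gene. The windows are chr3:88000357-88000606 (minus strand) for Bcan, chr3:88027512-88027761 (minus strand) for Hapln2, chr8:70120845-70121094 (minus strand) for Ncan and chr13:89540386-89540635 (plus strand) for Hapln1. They are written 5′ to 3′ on the strand of the gene, and capitals mark a GC box, searched as GGGCGG on both strands.
Bcan: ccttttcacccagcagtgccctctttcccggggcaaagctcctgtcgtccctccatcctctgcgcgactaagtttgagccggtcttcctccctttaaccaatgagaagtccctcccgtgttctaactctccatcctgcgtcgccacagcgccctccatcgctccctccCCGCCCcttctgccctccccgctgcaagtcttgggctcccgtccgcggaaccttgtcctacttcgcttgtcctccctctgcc
Hapln2: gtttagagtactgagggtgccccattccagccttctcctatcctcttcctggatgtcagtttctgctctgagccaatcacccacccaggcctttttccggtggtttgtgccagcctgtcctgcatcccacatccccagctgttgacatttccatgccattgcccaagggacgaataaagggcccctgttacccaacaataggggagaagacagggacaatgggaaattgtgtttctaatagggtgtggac
Ncan: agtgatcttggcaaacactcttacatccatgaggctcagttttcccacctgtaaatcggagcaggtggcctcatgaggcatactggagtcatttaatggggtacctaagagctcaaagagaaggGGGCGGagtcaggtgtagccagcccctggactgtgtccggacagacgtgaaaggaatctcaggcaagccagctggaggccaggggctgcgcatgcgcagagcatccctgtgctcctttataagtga
Hapln1: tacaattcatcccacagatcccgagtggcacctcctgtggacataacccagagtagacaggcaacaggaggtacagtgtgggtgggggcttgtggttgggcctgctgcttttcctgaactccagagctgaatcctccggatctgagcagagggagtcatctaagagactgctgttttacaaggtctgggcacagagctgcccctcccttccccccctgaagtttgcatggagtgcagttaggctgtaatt

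Bcan and Ncan, both lower in HFD offspring, hold 1 GC box each, and the windows of Hapln2, which was lower, and Hapln1, which was higher, hold none. A GC box was found in 32.7% of all 32851 windows of this length and in 55.2% of the 96 windows of 88 members. The Bcan window is 62% G or C with 16 CpG dinucleotides, against medians of 52.4% and 6 over all windows, while the windows of Hapln1 and Hapln2 hold 2 CpG dinucleotides each. The letters TATAAA, on either strand, occur in 1 of the 4 windows, that of Ncan, and in 12.4% of all windows. These matches describe the sequence only.

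Vcan codes for versican, the large lectican of early and loose matrix, and its levels in the 5 CO samples were -1.48, -1.67, -1.29, -1.24 and -1.78. In the 6 HFD samples they lay between -0.25 and -0.08 with a median of -0.17. Every HFD sample was thus above every CO sample, by a fitted difference of 1.32 (SE 0.10, adjusted p = 8.89e-07), which is 2.49-fold. This holds for the brightest of 3 Vcan probes. Of the other probes, one, well above background on 7 arrays, was higher by 0.72, and one with the same transcript accession was lower, at -0.39 (adjusted p = 0.00441).

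Hapln1 codes for the link protein of cartilage and of perineuronal nets. Its CO levels were -2.25, -2.93, -1.99, -1.89 and -2.74, and its HFD levels lay between -1.04 and -0.58 with a median of -0.80. The groups did not overlap, and the difference of 1.57 (SE 0.18, adjusted p = 2.03e-05), or 2.98-fold, was the largest increase among the 126 members. CO samples spread more widely (SD 0.46) than HFD samples (SD 0.17). In the Rank Product test, with a false positive limit of 0.001, Hapln1 was the 1 member called higher.

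Bcan codes for brevican, a lectican made by astrocytes and oligodendrocyte precursors. Its levels were 5.73, 5.82, 5.71, 5.66 and 5.73 in CO samples, and between 5.09 and 5.27 with a median of 5.16 in HFD samples. The spread was alike in both groups (SD 0.06), and the difference of -0.56 (SE 0.05, adjusted p = 4.26e-06) was several times that spread. A second Bcan probe, for another transcript accession, was also lower (-0.25, adjusted p = 0.00776). Ncan, which codes for neurocan, was at 0.93, 0.85, 0.91, 0.58 and 0.73 in CO samples and between 0.04 and 0.26 in HFD samples (median 0.15), a difference of -0.65 (SE 0.08, adjusted p = 2.34e-05).

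The link proteins next to Bcan and Ncan showed smaller decreases. Hapln2, the link protein of nodes of Ranvier, was at -1.63, -1.60, -1.60, -1.65 and -1.66 in CO samples and between -2.18 and -1.77 in HFD samples (median -2.01), with a difference of -0.38 (SE 0.07, adjusted p = 6.09e-04). Hapln4, found with brevican at inhibitory synapses and nets, was at -1.41, -1.34, -1.29, -1.0 and -1.25 in CO samples and between -1.81 and -1.44 in HFD samples (median -1.71), with a difference of -0.40 (SE 0.09, adjusted p = 0.00194). In both genes the lowest CO sample was above the highest HFD sample, for Hapln4 by a narrow margin (-1.41 against -1.44).

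Hapln3, a link protein expressed widely outside the brain, had the largest decrease of this group. Its CO levels were -2.09, -1.58, -1.95, -1.92 and -1.68, and its HFD levels lay between -3.12 and -2.87 (median -3.03), which gave a difference of -1.17 (SE 0.09, adjusted p = 1.70e-06), or 2.25-fold. Acan, which codes for aggrecan, the defining lectican of perineuronal nets, was at -3.40, -3.31, -3.34, -3.28 and -2.86 in CO samples and between -3.13 and -2.71 in HFD samples (median -3.04). The groups overlapped through CO replicate 5, and the difference of 0.27 (SE 0.11, adjusted p = 0.0545) was not called. It was called at 0.36 without CO replicate 5 and at 0.30 without HFD replicate 4, under quantile and median scaling it was called higher, and spike-in scaling turned it to -0.41.

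Cell markers beside these genes moved in part. Of 6 oligodendrocyte precursor genes 4 were lower and 2 not called, with a summed linear level of 68.5 to 78.8 in CO samples and 43.1 to 59.2 in HFD samples. Of 12 astrocyte genes 3 were higher and 2 lower (209 to 281 in CO and 206 to 247 in HFD samples). Of 7 genes of parvalbumin neurons, which nets often enclose, 2 were higher and 2 lower (26.2 to 30.7 in CO and 35.4 to 39.9 in HFD samples). The higher ones were Kcnc2 (0.75) and Lhx6 (1.29), which had the highest HFD level of the 7 (mean 4.16, in CO 2.87). Kcns3 (-0.30) and Syt2 (-0.50) were lower, and Pvalb itself (-0.21), Kcnc1 (-0.14) and Tac1 (-0.30) were not called. Of 12 oligodendrocyte genes 2 were higher and 6 lower (450 to 518 in CO and 404 to 492 in HFD samples), and of 12 neuronal genes 6 were higher and 1 lower (211 to 225 in CO and 229 to 263 in HFD samples). Their part in the lectican and tenascin differences was not tested.

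**Figure D2:**
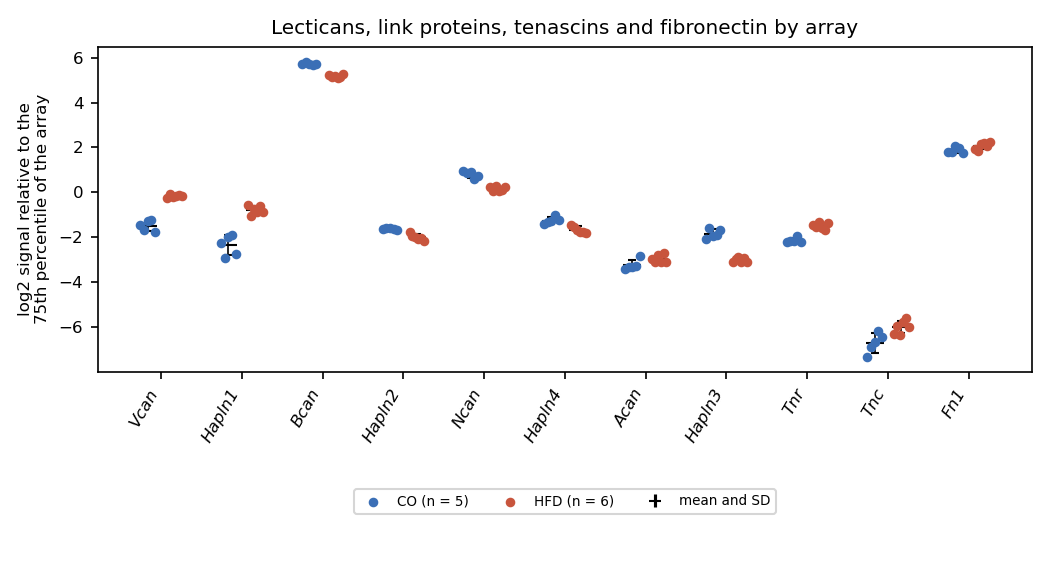
Points are the levels of 11 genes in each array (vertical axis, log2 signal relative to the 75th percentile of the array), for CO (n = 5) and HFD (n = 6), with mean and SD as bars. Vcan, Hapln1 and Tnr lie higher in HFD without overlap, Bcan, Ncan, Hapln2, Hapln3 and Hapln4 lie lower without overlap, and Acan, Tnc and Fn1 overlap. With scaling to spike-in probes Tnr, Acan and Fn1 turn to a negative difference.

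Both tenascins were higher in HFD offspring, and fibronectin was not called. Tnr, the tenascin of nets and nodes that is made by oligodendrocytes and some neurons, was at -2.23, -2.15, -2.17, -1.96 and -2.23 in CO samples and between -1.66 and -1.34 in HFD samples (median -1.51). The difference of 0.65 (SE 0.08, adjusted p = 2.64e-05) was without overlap and became -0.03 with spike-in scaling. Tnc, the tenascin of developing and injured tissue, was near background and its 2 probes disagreed: the brighter gave 0.70 (SE 0.20, adjusted p = 0.00855) with overlapping groups, and the other, well above background on 6 arrays, gave -0.77 (adjusted p = 0.0170). Their mean was -0.04. Fn1 was at 1.80, 1.78, 2.05, 1.97 and 1.75 in CO samples and between 1.82 and 2.24 in HFD samples (median 2.12), and its difference of 0.20 (SE 0.09, adjusted p = 0.0714) was called without CO replicate 3 (0.24) or HFD replicate 2 (0.25) and under quantile and median scaling, and was -0.48 with spike-in scaling.

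Integrin genes were called in both directions, and of the subunits tested all but Itga3 passed the threshold, against 66.4% of all genes. Of 11 alpha subunits 5 were higher and 5 lower, of 5 beta subunits 2 were higher and 3 lower, and of 5 leukocyte integrin genes 1 was higher and 4 were lower. Under normexp 4 alpha subunits were higher and 1 lower, 1 beta subunit was higher and 3 lower, and 1 leukocyte integrin was lower. With scaling to spike-in probes none of these 21 genes was called higher. The higher alpha subunits were Itga1 (0.69), Itga4 (0.82), Itga6 (0.49), Itga8 (0.82) and Itgav (0.55), each without overlap between the groups, and Itga1 was at 0.34 without a call under normexp. All of these can pair with the beta 1 subunit, whose gene Itgb1 was at -0.50, -0.88, -0.29, -0.44 and -0.90 in CO samples and between -0.42 and -0.06 in HFD samples (median -0.24). The Itgb1 groups overlapped and the difference was 0.36 (SE 0.13, adjusted p = 0.0237), while a second, dimmer probe was at 0.23 (adjusted p = 0.151). Under spike-in scaling Itga6, Itgav and Itgb1 turned to -0.19, -0.13 and -0.32. No beta subunit was called higher without CO replicate 2 or 5, and 1 without CO replicate 1 or HFD replicate 1, 2, 3 or 5, or with the leading number of the CO titles as a random block.

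Itgav, the alpha subunit of vitronectin receptors, was at -1.94, -2.09, -1.84, -1.82 and -2.12 in CO samples and between -1.64 and -1.17 in HFD samples (median -1.42). Its difference had an SE of 0.09 and an adjusted p of 1.92e-04, but a second, dimmer probe showed -0.02 (adjusted p = 0.879). Of its beta partners Itgb3 and Itgb5 were lower, and Itgb8 was at 0.33 (adjusted p = 0.0458), or -0.35 with spike-in scaling. Itgb5 was at 2.36, 2.42, 2.42, 2.32 and 2.44 in CO samples and between 1.80 and 2.16 in HFD samples (median 1.94), a difference of -0.45 (SE 0.07, adjusted p = 1.44e-04). The CO samples of Itgb5 stood close together (SD 0.05), and all HFD samples lay below them.

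Itga6 and Itgb4 form the laminin receptor of hemidesmosomes, and they moved in opposite directions. Itga6 was at 1.76, 1.43, 1.93, 1.54 and 1.43 in CO samples and between 1.99 and 2.35 in HFD samples (median 2.06, difference 0.49, SE 0.10, adjusted p = 0.00131). Itgb4 was at 0.79, 1.01, 0.96, 0.64 and 0.95 in CO samples and between -0.30 and 0.26 in HFD samples (median 0.18, difference -0.77, SE 0.11, adjusted p = 7.47e-05). The opposite signs were seen under percentile, quantile, median and normexp processing, whereas spike-in scaling gave Itga6 -0.19 without a call. Lower alpha subunits were Itga2b (-1.06), Itga5 (-0.77), Itga9 (-0.56), Itga7 (-0.45), a laminin receptor of muscle, and Itga11 (-0.34), and of these Itga7 kept its call under every scaling and normexp.

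Itga2b and Itgb3, the 2 subunits of the platelet fibrinogen receptor, were both lower. Itga2b was at -5.45, -5.29, -5.32, -5.62 and -5.38 in CO samples and between -6.57 and -6.33 in HFD samples (median -6.50), a difference of -1.06 (SE 0.07, adjusted p = 5.99e-07) that was -0.34 without a call under normexp. Itgb3 was at -1.98, -1.87, -1.89, -1.90 and -1.82 in CO samples and between -2.52 and -2.28 in HFD samples (median -2.33), a difference of -0.46 (SE 0.06, adjusted p = 2.87e-05). Beside them, 3 of 4 blood genes were lower and 1 was not called, with a summed linear level of 92.7 to 116 in CO samples and 58.8 to 79.0 in HFD samples, and the part of blood was not tested.

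The leukocyte integrins held the member with the smallest adjusted p. Itgal, the alpha subunit of LFA-1 on lymphocytes and other leukocytes, was at -4.65, -4.31, -4.63, -4.52 and -4.34 in CO samples and between -6.40 and -6.02 in HFD samples (median -6.15). The difference of -1.69 (SE 0.09, adjusted p = 1.20e-07), or 3.23-fold, was several times the spread in either group. With normexp it was -0.79 and no longer called. Its partner Itgb2 was at -3.29, -2.97, -3.05, -3.11 and -2.86 in CO samples and between -4.05 and -3.67 in HFD samples (median -3.98, difference -0.86, SE 0.10, adjusted p = 1.48e-05), a call that was kept under every scaling and normexp. Itgax, the CD11c subunit of dendritic cells and some microglia, showed -0.76 (SE 0.11, adjusted p = 9.30e-05) and was not called with quantile scaling (-0.29) or normexp (-0.34), Itgb7, a subunit of gut-homing lymphocytes, showed -0.38, and Itgad, the CD11d subunit of macrophages, 0.28, which became -0.40 with spike-in scaling and was not called without CO replicate 1.

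Leukocyte markers were mostly lower too. Of 10 tested genes of leukocytes other than microglia, 8 were lower (44.1% of all genes were) and 1 was higher, with a median of -0.91. Their summed linear level was 2.17 to 3.47 in CO samples and 1.44 to 1.89 in HFD samples. The higher gene was Ptprc, expressed by leukocytes at large, at 0.83 without overlap. Of the lower genes, Cd8a was well above background on 0 HFD arrays and Cd79a on 1, so that these could hardly have been higher. Itgal itself is in that list, and Ly6g and Ccr2 were not above the filter. Of 14 microglial genes 7 were lower and 3 higher (89.0 to 106.8 in CO and 82.1 to 95.6 in HFD samples). The part of leukocyte number in the integrin differences was not tested.

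**Figure D3:**
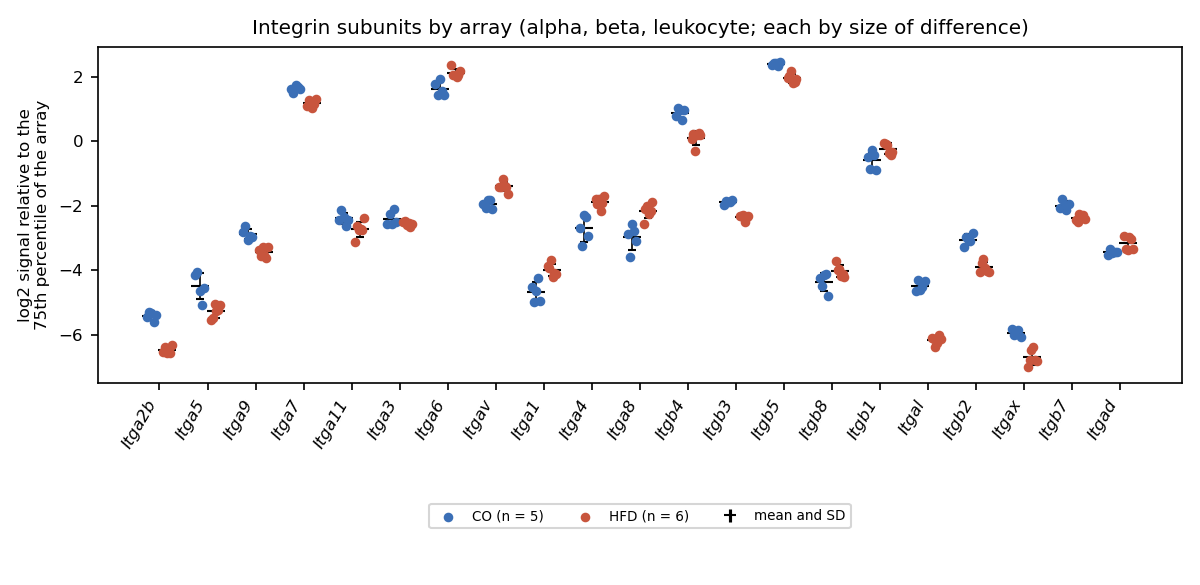
Points are the levels of 21 integrin genes in each array (vertical axis, log2 signal relative to the 75th percentile of the array), for CO (n = 5) and HFD (n = 6), with mean and SD as bars. From left to right stand alpha, beta and leukocyte subunits, each ordered by difference. Itgal lies lowest relative to CO (-1.69), and the 5 alpha subunits from Itga6 to Itga8 lie higher in HFD without overlap, of which Itga6 and Itgav turn negative with scaling to spike-in probes.

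Among the genes that carry the integrin name without being subunits, Itgb3bp was higher. It codes for a protein that also serves at centromeres, and was at -2.22, -2.21, -1.91, -1.94 and -2.33 in CO samples and between -1.07 and -0.95 in HFD samples (median -1.02). Its difference was 1.11 (SE 0.08, adjusted p = 8.66e-07), with a second probe at 0.85. The call was kept under every scaling and normexp, at 0.43 with spike-in scaling. Itgb1bp1, an adaptor that restrains beta 1 integrins, was at -0.34 (SE 0.11, adjusted p = 0.0177) with overlapping groups, and its dimmer probe at 0.07 (adjusted p = 0.532). Itgbl1, a secreted integrin-like protein, was at -0.48 (adjusted p = 0.109), called at -0.62 without CO replicate 2. Lower genes of this kind were 2 without CO replicate 2 or HFD replicate 3.

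None of the 8 collagens of vessel and other basement membranes was called by limma on its brightest probe, with differences from -0.36 to 0.18, although spike-in scaling makes all 8 lower and normexp gave 1 higher. At an unadjusted p under 0.05 there were 2, Col15a1 and Col4a3, and the Rank Product test called 0. Among all genes 66.4% were called by limma at 0.05 and 4.99% by the Rank Product test at its stricter limit of 0.001. Col4a1 and Col4a2, the neighboring genes of the chains found in all basement membranes, were at 0.06 (SE 0.12, adjusted p = 0.670) and -0.12 (SE 0.13, adjusted p = 0.434). Col4a1 was at -0.50, -0.58, -0.51, -0.54 and -0.83 in CO samples and between -0.73 and -0.09 in HFD samples (median -0.62), so that the groups overlapped. Of the chains with a more limited distribution, Col4a3 was at -0.31, Col4a4 at 0.03, Col4a5 at 0.04 and Col4a6 at 0.18, none of them called, and second probes of Col4a4 (-0.96, adjusted p = 0.00110) and Col4a6 (-0.99, adjusted p = 4.63e-04) were lower. Col15a1, another vessel collagen, was at -0.36 and was called at -0.50 without CO replicate 1, Col4a3 was called at -0.40 without CO replicate 5, and Col4a6 at 0.29 without HFD replicate 1. Of 14 endothelial genes 5 were higher and 4 lower (summed linear level 31.5 to 33.2 in CO and 29.9 to 39.4 in HFD samples), and of 12 pericyte and smooth muscle genes 3 were higher and 6 lower (14.4 to 15.0 in CO and 10.9 to 12.5 in HFD samples).

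Of 11 fibrillar collagens 3 were higher and 2 lower (2 and 1 under normexp). These are 27.3% higher and 18.2% lower, against 22.2% and 44.1% of all genes. The 2 chains of type I collagen, which assemble with each other, did not move alike: Col1a1 was at 0.23, -0.15, 0.46, 0.27 and 0.11 in CO samples and between 0.14 and 1.17 in HFD samples (median 0.70, difference 0.50, SE 0.16, adjusted p = 0.0173), whereas Col1a2 was at 2.15, 1.99, 2.36, 2.28 and 2.08 in CO samples and between 1.50 and 2.19 in HFD samples (median 2.14, difference -0.15, SE 0.13, adjusted p = 0.328). Both genes overlapped between the groups, and the difference between them was not tested. Col1a1 turned to -0.18 with spike-in scaling. Col3a1, the partner of type I collagen in meninges and vessel walls, was at -0.15 (SE 0.10, adjusted p = 0.202). Col11a1 was higher without overlap, at 0.80 (SE 0.15, adjusted p = 5.20e-04), and its partner chain Col11a2 lower without overlap, at -0.48 (SE 0.10, adjusted p = 0.00109). Col24a1, a minor fibrillar collagen, was at 0.37 (adjusted p = 0.00748) and at -0.31 with spike-in scaling.

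Of the 22 other collagens tested 4 were higher, 6 lower and 12 not called (1 higher and 3 lower under normexp). These are 18.2% higher and 27.3% lower, against 22.2% and 44.1% of all genes. The neighbors Col6a1 and Col6a2, 2 chains of the type VI collagen of pericellular matrix, were both lower, at -0.84 (SE 0.24, adjusted p = 0.00913) and -0.63 (SE 0.16, adjusted p = 0.00492), with overlap in both. Col6a1 was at 0.22, 0.30, -0.32, -0.77 and -0.02 in CO samples and between -1.81 and -0.63 in HFD samples (median -0.80), so that CO replicate 4 lay within the range of the HFD samples. Col25a1, a transmembrane collagen of neurons, was at -0.90, -1.14, -0.69, -0.87 and -1.45 in CO samples and between -0.47 and -0.30 in HFD samples (median -0.42), which gave 0.61 (SE 0.12, adjusted p = 7.09e-04) and -0.07 with spike-in scaling. Another Col25a1 probe was at 0.77 and a further one at 0.10 without a call (adjusted p = 0.394). Col25a1 also stood among the 9 tanycyte marker genes tested, of which 2 were higher and 4 lower. Col9a2 (-0.36, adjusted p = 3.04e-04) and Col26a1 (-0.43, adjusted p = 0.00315) were lower without overlap and kept their call under every scaling and normexp. The count of 4 higher members among these collagens was 1 without HFD replicate 3 and 2 without any 1 of CO replicates 1, 2 and 5 and HFD replicates 2, 4 and 5. Of 15 genes of meningeal and vascular fibroblasts, the main source of fibrillar collagens in the brain, 2 were higher and 6 lower (17.0 to 20.1 in CO and 12.4 to 19.9 in HFD samples).

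The laminins and perlecan gave 5 lower genes of 12 (41.7%, against 44.1% of all genes, and 3 under normexp) and 0 higher in limma (6 and 0 at an unadjusted p under 0.05, and 0 higher in the Rank Product test), and with spike-in scaling all 12 were lower. Lama3, the alpha chain of epithelial laminin, was at -3.68, -3.03, -3.32, -3.26 and -2.95 in CO samples and between -4.83 and -4.34 in HFD samples (median -4.55). Its difference was -1.31 (SE 0.14, adjusted p = 1.03e-05) without overlap, and a second, dimmer probe was at -0.23 (adjusted p = 0.270). Lamb2, the beta chain of mature vessel and synaptic laminin, was at -0.37, -0.31, -0.22, -0.33 and -0.39 in CO samples and between -1.04 and -0.62 in HFD samples (median -0.91, difference -0.55, SE 0.08, adjusted p = 1.12e-04). Lama1 was at -0.28 (adjusted p = 0.00518) with overlap. By contrast Lamc1 (-0.01), Lama2 (-0.02), Lama5 (0.03) and Lamb1 (0.09), chains that vessel laminins also hold, and Hspg2 (-0.09), the perlecan gene, were not called, while a second, dimmer Hspg2 probe was at 0.48 (adjusted p = 0.0220).

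Of 14 matrix metalloproteinases tested, 12 were lower (85.7%, against 44.1% of all genes), 1 was higher and 1 was not called. Since 4 of the 12 passed the filter through their CO arrays only, these could not have been higher, and of the other 10 genes 8 were lower. Only 4 of the 12 stayed called under normexp, namely Mmp14, Mmp15, Mmp17 and Mmp24. These are membrane-type metalloproteinases, which act at the cell surface. Mmp15 was at -1.16, -0.82, -0.99, -0.89 and -1.09 in CO samples and between -1.86 and -1.68 in HFD samples (median -1.74), a difference of -0.77 (SE 0.07, adjusted p = 4.02e-06). Mmp14, the activator of pro-Mmp2, was at -2.74, -2.89, -2.66, -2.83 and -3.16 in CO samples and between -3.95 and -3.42 in HFD samples (median -3.70), a difference of -0.85 (SE 0.11, adjusted p = 5.78e-05). Mmp17 was at 2.12, 2.13, 1.83, 1.77 and 2.49 in CO samples and between 1.02 and 1.50 in HFD samples (median 1.34), a difference of -0.73 (SE 0.13, adjusted p = 4.43e-04). In each of these 3 genes all HFD samples lay below all CO samples.

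The 4 metalloproteinases with the largest fitted decreases were not well above background on any HFD array. Only a bound can thus be given for them. On the percentile scale, Mmp7 (matrilysin) was at least 2.19-fold lower, Mmp10 (stromelysin-2) at least 1.88-fold, Mmp25 at least 1.85-fold and Mmp28 at least 1.21-fold. These bounds are for that scale only. Under normexp the log2 differences were -0.53, -0.31, -0.38 and -0.36 in the same order, none of them called. Each bound sets the mean of the CO samples against the lowest signal well above background on each HFD array, or the probe's own where that was higher. Mmp7, with adjusted p = 8.27e-06, was the 1 member called lower in the Rank Product test. CO replicate 2 of Mmp25 (-4.87) was far above the other CO samples (-7.07 to -6.72), which raised the mean behind its bound. Mmp16, also of the membrane type, was higher by 1.10 (SE 0.14, adjusted p = 4.05e-05) and was at 0.14 without a call under normexp. The gelatinases Mmp2 (-0.38) and Mmp9 (-0.31), which cut type IV collagen, were lower with overlapping groups, Mmp9 at 0.06 without a call under quantile scaling. Of 10 Mmp genes on chromosome 9, where the collagenases and stromelysins lie, 9 had a probe and 2 passed the filter, and of 13 on other chromosomes 12 passed.

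**Figure D4:**
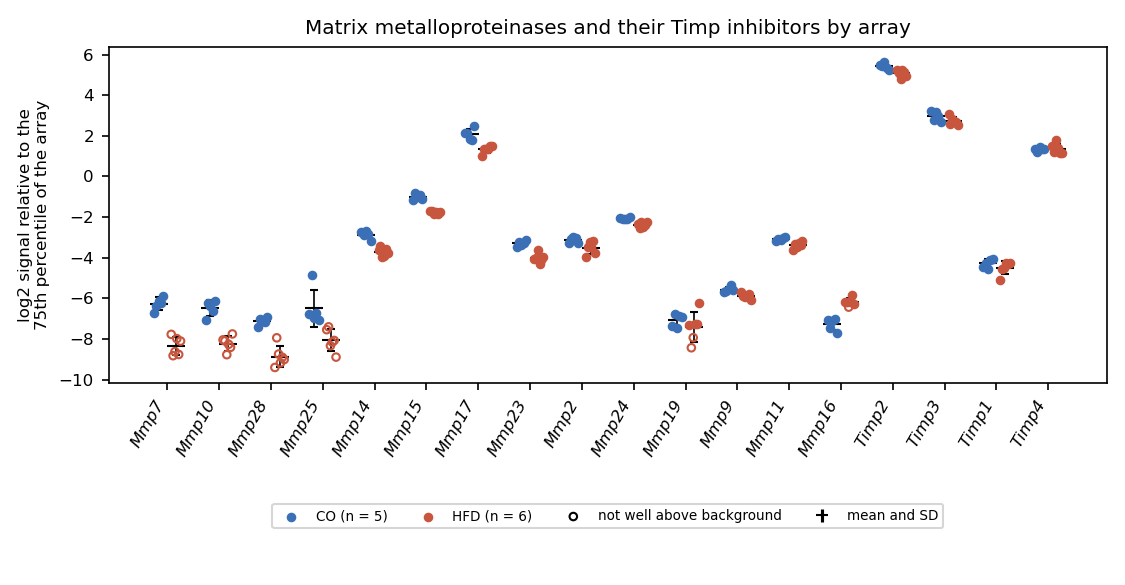
Points are the levels of 14 metalloproteinases and 4 Timp genes in each array (vertical axis, log2 signal relative to the 75th percentile of the array), for CO (n = 5) and HFD (n = 6), with mean and SD as bars, and open points are not well above background. All HFD points of Mmp7, Mmp10, Mmp28 and Mmp25 are open. Mmp14, Mmp15 and Mmp17 are lower without overlap, and of the Timp genes Timp2 is lower with overlap, and with scaling to spike-in probes Timp4 also turns to a negative difference.

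Their inhibitors moved less. Timp2, which also takes part in the activation of pro-Mmp2 by Mmp14, was at 5.47, 5.42, 5.62, 5.35 and 5.23 in CO samples and between 4.82 and 5.26 in HFD samples (median 5.11). Its difference of -0.34 (SE 0.09, adjusted p = 0.00775) kept its call under every scaling and normexp, with overlapping groups and a second probe at -0.03 (adjusted p = 0.660). Timp1 (-0.22, adjusted p = 0.233), Timp3 (-0.24, adjusted p = 0.105) and Timp4 (0.02, adjusted p = 0.857) were not called, Timp3 was called at -0.31 without CO replicate 5 and at -0.30 without HFD replicate 1, and Timp4 was at -0.66 with spike-in scaling. The difference between the metalloproteinases and the inhibitors was not tested.

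The Adamts enzymes that cut lecticans showed 3 lower genes of 7 (42.9%, against 44.1% of all genes, and 1 under quantile scaling or normexp) and 0 higher in limma (also 0 higher at an unadjusted p under 0.05 and in the Rank Product test, and 1 higher without CO replicate 3). Adamts8 was at -2.11, -2.24, -2.04, -2.18 and -1.84 in CO samples and between -2.80 and -2.38 in HFD samples (median -2.45), a difference of -0.41 (SE 0.09, adjusted p = 0.00211). It kept its call under every scaling and normexp. Adamts5, a main aggrecanase, was at -0.57 (SE 0.17, adjusted p = 0.0131) on the brighter probe and at 2.25 (adjusted p = 3.04e-05) on the other, both near background, and was not called with quantile scaling (-0.11) or normexp (-0.25). Adamts20 at -0.44 (adjusted p = 0.0495) turned to 0.13 under quantile scaling and was not called without CO replicate 2, 4 or 5 or any 1 of HFD replicates 1, 2, 4, 5 and 6. Adamts1, Adamts4, Adamts9 and Adamts15 were not called, with differences from -0.18 to 0.24.

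Of the 12 other Adamts genes 5 were lower, 41.7% against 44.1% of all genes, and 1 was higher. Of the lower genes Adamts12 and Adamts13 were not well above background on any HFD array and could not have been higher. Under normexp 0 were lower and 1 was higher. The procollagen N-proteinases Adamts2, Adamts3 and Adamts14, which trim fibrillar procollagens, were all lower, at -0.32, -1.02 and -0.52, Adamts2 with overlap. Adamts3 was well above background on 2 of the 6 HFD arrays and was at -0.46 with quantile scaling. Adamts14 was at -2.13, -2.10, -1.92, -2.14 and -2.07 in CO samples and between -2.77 and -2.37 in HFD samples (median -2.61, SE 0.08, adjusted p = 1.05e-04). None of the 3 was called under normexp. On the percentile scale Adamts13, the protease of von Willebrand factor, was at least 1.19-fold lower. The brighter Adamts12 probe was at least 1.54-fold lower on that scale, with overlap, and was at -0.38 without a call under quantile scaling. A second Adamts12 probe, well above background on 5 arrays, was at 0.23 (adjusted p = 0.321). Adamts19 was higher, with -3.75, -3.98, -3.41, -3.65 and -4.49 in CO samples and between -3.26 and -2.75 in HFD samples (median -2.96), a difference of 0.89 (SE 0.17, adjusted p = 7.31e-04) without overlap that was 0.21 without a call under spike-in scaling.

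Probes of the same gene were compared for the 34 members with several probes. In 16 members 2 or more probes were called, and in 4 of these (25%) the calls went in opposite directions, against 15.2% (371 of 2435) of all genes. These were Vcan, Tnc, Adamts5 and Col9a1, a cartilage collagen, which showed 0.23 (adjusted p = 0.0492 over all probes) on the brighter probe and -2.05 on the other. The call of the brighter Col9a1 probe was not made without CO replicate 2, 4 or 5 or HFD replicate 1, 2, 3 or 4. Both Itga1 probes were higher, but by 0.69 and 2.58. The transcripts that each probe reads were not compared, since probe sequences were not used here.

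**Figure D5:**
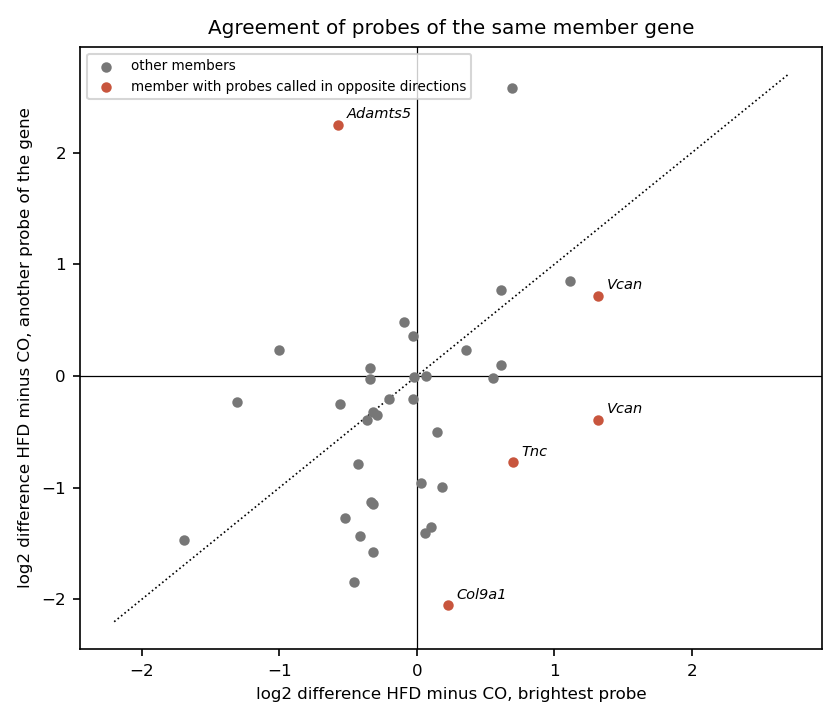
Each point is a probe of a member with several probes, by the log2 difference (HFD minus CO) of the brightest probe of the gene (horizontal axis) and of the other probe (vertical axis). The dotted line marks equal values. Red points belong to the 4 members whose calls were opposite (Vcan, Tnc, Adamts5 and Col9a1), and scaling to spike-in probes would move every point down and to the left by 0.68.

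The spread between samples set how firmly single members can be read. The median SD within groups was 0.20 in members and 0.16 in all genes, from 0.06 to 0.81. Col13a1 had the widest spread, with CO levels of -7.40, -4.47, -6.38, -6.90 and -7.02, and its difference of -0.98 (SE 0.44, adjusted p = 0.0655) was not called. CO samples varied more than HFD samples in 45.2% of the members and in 59.7% of all genes.

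Genes of the same pathways outside the member families were mostly lower where they process collagen or join integrins to actin. Of 25 collagen processing genes 2 were higher and 16 lower (median -0.32), with Plod1, a lysyl hydroxylase, at -1.26 (SE 0.08, adjusted p = 2.93e-07), P4ha3, a prolyl hydroxylase subunit, at -0.95 (SE 0.07) and Mia3, which loads procollagen for export, at 0.62 (SE 0.06). Plod1, P4ha3 and Mia3 each had a second probe of the same sign, at -1.54, -0.58 and 0.78. Of 23 integrin adhesion adaptors 2 were higher and 16 lower (median -0.32), with paxillin (Pxn) at -1.23 (SE 0.09, adjusted p = 7.10e-07), Vasp at -0.66 (SE 0.07) and the kinase gene Src at -0.67 (SE 0.07). For comparison, 44.1% of all genes were lower, and every increase under 0.68, such as that of Mia3, turns negative with spike-in scaling.

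Other matrix proteins moved both ways, where 22.2% of all genes were higher and 44.1% lower. Of 39 other matrix glycoproteins 6 were higher and 15 lower (median -0.18). Reln, which codes for the signaling glycoprotein reelin, was at -1.55 (SE 0.11, adjusted p = 5.66e-07), Vtn, the vitronectin gene, at -0.71 (SE 0.05) and Emilin3 at -2.25 (SE 0.19). Of 29 other proteoglycans and hyaluronan genes 11 were higher and 9 lower (median -0.03), among them Ptprz1, the gene of phosphacan, a ligand of tenascin-R, at 1.49 (SE 0.09, adjusted p = 3.21e-07) with a second probe at 1.35, Bgn, the biglycan gene, at -1.72 (SE 0.11) and Ogn, the osteoglycin gene of the meninges, at 2.65 (SE 0.31). Of 15 other matrix protease regulators 3 were higher and 8 lower (median -0.27), with Adam10, a membrane sheddase, at 1.29 (SE 0.11, adjusted p = 2.21e-06), Adamtsl2 at -1.05 (SE 0.10) and Serpine2, a protease inhibitor of glia, at -0.70 (SE 0.10).

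Genes of other brain regions also differed between the groups. Of 12 striatal genes 9 were lower and 3 not called (summed linear level 22.3 to 119 in CO and 15.1 to 41.2 in HFD samples), and of 10 thalamic genes 7 were higher and 1 lower (14.3 to 25.3 in CO and 24.8 to 35.3 in HFD samples). The part of dissection in the member differences was not tested. Of 11 choroid plexus and ependymal genes 3 were lower and 8 not called (50.3 to 71.7 in CO and 25.5 to 67.0 in HFD samples).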

How the data were processed

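Hypothalamic RNA of 5 CO and 6 HFD samples was hybridised to single-color Agilent 4x44K mouse v2 arrays. The authors deposited scanner output, a spot intensity that is linear and background-subtracted, from Agilent Feature Extraction (10.8 in the submitters' processing notes, 10.7.3.1 in the file headers). How the authors normalized arrays to each other is not given in the sources. Samples were grouped by the titles of their labels. No array was identical to another.

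log2 of the processed signal minus the 75th percentile of each array was used. Control and outlier spots were left out, spots of a probe were averaged, and 26369 of 39429 mouse probes were matched by accession to 19987 genes of a RefSeq table (GRCm38.p6). A probe needed a signal well above background on 5 or more arrays, and the brightest probe stood for a gene. HFD minus CO was tested in R 4.3.3 by lmFit and eBayes of limma 3.58.1 (statmod 1.5.0 for blocks, files read by data.table version 1.17.8), two-sided, with Benjamini-Hochberg adjustment over 17189 genes (over 31796 probes for single probes) and a threshold of 0.05. Figures were drawn with matplotlib 3.10.9 and pandas 2.3.3 in Python 3.11.15. On simulated data, 59% of changes of 0.5 and 89% of changes of 1 on the log2 scale were recovered among 200 changed genes, and 6.33% of the calls were false. The simulation changed only 200 of 17189 genes and held no difference of slide or scan. These shares therefore do not carry over to the calls given here.

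The members, lists and tests were chosen with earlier results of these data known. Genes were named by rule: the 10 largest increases and decreases among called members above background on all arrays without overlap, in each list up to 3 genes of smallest adjusted p, every lectican, link protein, tenascin, fibronectin, type I, III and IV collagen and Timp gene, and members with opposite probes. Other genes named were chosen after their values were seen. Alternatives were quantile, median and spike-in scaling, no filter and a filter on all 11 arrays, the mean over probes, slide and replicate blocks, a block for the leading number of the CO titles (chosen after the data were seen), the study's Rank Product test (50 permutations), a 2-fold minimum, leaving out each array, and normexp (offset 50) on spot medians, chosen after the files were seen to hold no spot means. The labels name no dams, and p-values rest on the spread among these samples alone, and the number of arrays limits the precision. Coordinates other than promoter windows, probe sequences and proteins were not used here.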

Additional observations from a re-analysis of the deposited data

Results flagged for a closer look

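Of 126 groups looked at, 2 for each of 63 named members, 11 held a sample that stood far from the others by Dixon's criterion, where chance marks about 1 group in 20. Of these 11 samples 3 were from CO and 8 from HFD offspring, and HFD replicate 1 was marked in 3 genes.

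Among matrix proteins, CO replicate 5 was at -2.86 for Acan (the nearest other CO sample at -3.28) and at -0.83 for Col4a1 (nearest -0.58). CO replicate 1 was at -6.51 for Col15a1 (nearest -5.90). HFD replicate 1 was at 1.50 for Col1a2 (nearest 2.01), HFD replicate 3 at -0.50 for Col9a2 (nearest -0.64) and HFD replicate 6 at -0.44 for Lama1 (nearest -0.68). For the integrin gene Itgb3, HFD replicate 4 was at -2.52 (nearest -2.35).

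Among proteases and inhibitors, HFD replicate 6 was at -7.34 for Adamts5 (nearest -6.51), HFD replicate 3 at -2.80 for Adamts8 (nearest -2.50), and HFD replicate 1 at 1.02 for Mmp17 (nearest 1.33) and at -5.11 for Timp1 (nearest -4.56). Without the sample concerned, Acan (0.36) and Col15a1 (-0.50) came under the threshold of 0.05, and Adamts5, Adamts8, Col9a2, Itgb3, Lama1 and Mmp17 kept their calls.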

How the results depend on the processing

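The median member difference of -0.19 was -0.10 with quantile scaling, -0.13 with median scaling, -0.13 with normexp and -0.87 with spike-in scaling. Higher and lower members, 22 and 52 in the report, were 4 and 109 with spike-in scaling, 14 and 23 with normexp, and 4 and 10 at a minimum of 2-fold. They were 1 and 1 in the Rank Product test, which called 490 higher and 366 lower genes of 17153 at its stricter limit of 0.001. Leaving out 1 array gave 18 to 24 higher and 47 to 54 lower members and medians from -0.23 to -0.18. No filter (25 and 52 of 138), the filter on all arrays (22 and 42 of 109), the mean over probes (19 and 56) and slide as a random block (24 and 55, correlation -0.057) and the leading number of the CO titles as a random block (21 and 52, correlation 0.037, chosen after the data were seen) stayed within 1.5 times. Turned signs were Adamts20 at 0.13 with quantile scaling, Acan at -0.41, Col1a1 at -0.18, Col24a1 at -0.31, Col25a1 at -0.07, Col4a1 at -0.62, Col4a4 at -0.65, Col4a5 at -0.64, Col4a6 at -0.50, Col9a1 at -0.45, Fn1 at -0.48, Itgav at -0.13, Timp4 at -0.66 and Tnr at -0.03 with spike-in scaling, and Adamts5 at 0.59, Col4a4 at -0.46, Col4a6 at -0.41, Col9a1 at -0.91 and Tnc at -0.04 with the mean over probes. Under percentile, quantile, median and normexp processing, 13 members were higher and 23 lower alike, and with spike-in scaling also 3 (Hapln1, Itgb3bp and Vcan) and the same 23. Over the 63 named members and all alternatives, 1326 results kept direction and call, 132 lost the call, 28 gained it and 19 turned. The cause of these shifts was not tested.

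Replicate numbers are shared only as numbers: deviations of same-numbered samples correlated at 0.18, -0.03, -0.10, 0.03 and 0.17. With the replicate number as a block over 10 arrays, 22 members were higher and 48 lower (median -0.18), beside 22 and 50 without the block on the same arrays. HFD arrays had fewer spots above background, which limits the dim members to bounds.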
